A study of Drosophila melanogaster with 2 samples.

Results

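The 8 genes described here code for the dosage compensation machinery of Drosophila and were chosen by symbol in the dm6 annotation as a list of known components. They are the non-coding RNA genes roX1 and roX2 (lncRNA:roX1 and lncRNA:roX2 in the annotation) and the protein-coding genes msl-1, msl-2, msl-3, mle, mof and Clamp, 8 of 18277 annotated genes on the chromosome arms. Binding of ADD1 was mapped at them by chromatin immunoprecipitation and sequencing (ChIP-seq) with an anti-GFP antibody. The material was whole embryos of both sexes, 0 to 16 h old, of the Drosophila melanogaster line ADD1-MiMIC-GFP. In this line an eGFP exon inserted in an intron of ADD1 gives an ADD1-GFP fusion made from the gene's own locus, and all samples share this insertion. The single group holds 2 biological replicates, numbered 1 and 3. Since the sexes and all tissues were pooled, binding in males and in females, or in different cell types, cannot be told apart.

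In male flies the single X chromosome is transcribed at a raised rate by the MSL complex. This complex joins the proteins MSL-1, MSL-2, MSL-3, MLE and MOF with one of the roX RNAs, and it spreads along X from entry sites rich in GA repeats, of which the roX genes themselves contain well-known examples. CLAMP, a zinc finger protein that binds GA repeats, helps to bring the complex to these sites. In females the RNA-binding protein SXL blocks translation of msl-2, so the complex does not form. ADD1 carries an ADD domain like that of mammalian ATRX and is known from work on heterochromatin.

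A call is a region scored by the authors' peak caller on the pooled reads of both replicates, and its signal value is the caller's score. A kept peak is a call that also stands in the authors' list thresholded by the irreproducible discovery rate (IDR), a measure of how well ranks hold between replicates. The pooled list has 30000 calls, and the 4402 kept peaks have signal values of 96.44 or more, where the strongest call left out has 96.39. Ranks start at 1 for the strongest call of a list. Coordinates are 1-based on dm6. A call belongs to a gene here when its summit lies in the gene or within 1 kb of it. The depth of the libraries is unknown, and a signal value carries no replicate error of its own, so the ranks in each replicate's list are given beside it.

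Both roX genes carried strong ADD1-GFP peaks, and of the 6 protein-coding genes of the complex mle and Clamp had a kept peak. The share over all 13968 protein-coding genes was 31.4%, and 22.9% for a kept peak at a start, which Clamp alone of the 6 had. Kept peaks lay at roX2 (4), roX1 (2), mle (1) and Clamp (1), while msl-1, msl-2 and mof had weaker calls and msl-3 had none. Thus 7 of the 8 genes had a call and 4 had a kept peak. Among all 18277 genes the shares were 57.8% with a call and 27.3% with a kept peak. With 500 bp around annotated starts as the rule, 7 of the 8 had a call and 3 (roX1, roX2 and Clamp) a kept peak, against 44.5% and 19.0% of all genes. With 8 genes chosen as a list, these counts are a description and were not tested. The 26 calls at the genes divide into 10 at the roX genes, 6 of them kept, and 16 at the protein-coding genes, 2 of them kept. Over the whole pooled list, 4402 of 30000 calls were kept.

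**Figure D1:**
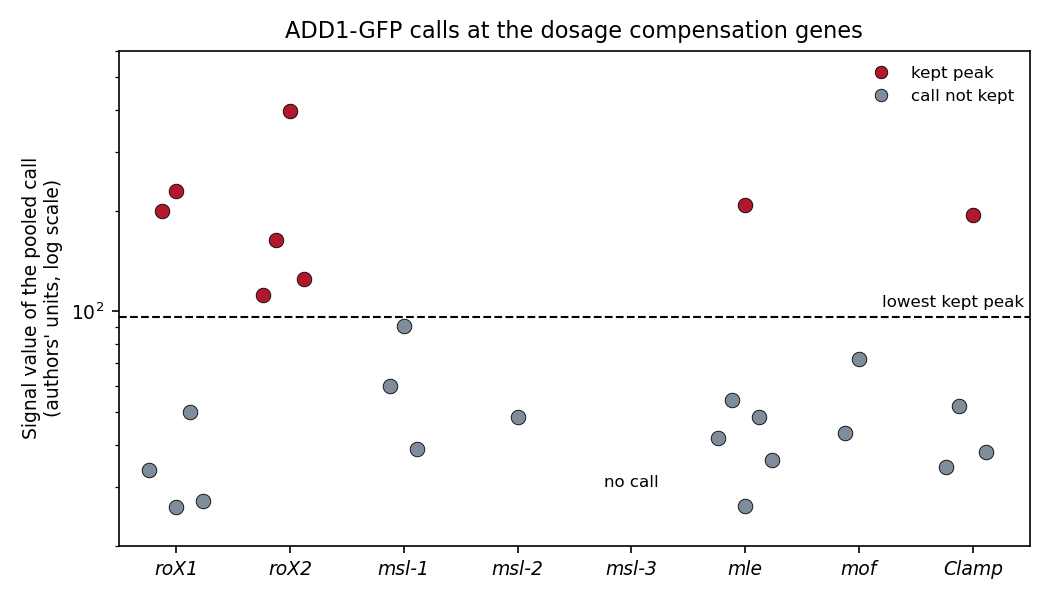
Signal value of each pooled call (log axis, authors' units) at the 8 genes, with kept peaks in red, other calls in grey and the lowest kept signal as a dashed line. All 4 calls of roX2 lie above the line, from 112 to 397.7, while the highest call of msl-1 lies just under it at 90.37.

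The sequences under 5 of the calls are shown first because they carry the positions described after them. Each is the 201 bases centred on a summit, taken from the Release 6 assembly (dm6) and written on the strand of its gene from 5′ to 3′. The roX2 start window spans chrX:11578962-11579162 (plus strand), the roX2 3′ window chrX:11580237-11580437 (plus), the roX1 inner window chrX:3861236-3861436 (minus), the Clamp start window chr2L:22169139-22169339 (minus) and the msl-2 start window chr2L:3466118-3466318 (minus). Capitals mark matches, on either strand, to GAGAGA or GAGAGAGA (the GA repeat of MSL entry sites), GGTCACAC (the M1BP promoter element) and TCGATA (the core of the DRE promoter element). A match on the opposite strand appears as its reverse complement, as at the Clamp start for TCGATA.
roX2 start: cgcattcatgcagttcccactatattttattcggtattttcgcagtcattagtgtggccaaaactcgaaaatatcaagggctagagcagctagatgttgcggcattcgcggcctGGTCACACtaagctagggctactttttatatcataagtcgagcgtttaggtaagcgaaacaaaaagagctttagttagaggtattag
roX2 3′ end: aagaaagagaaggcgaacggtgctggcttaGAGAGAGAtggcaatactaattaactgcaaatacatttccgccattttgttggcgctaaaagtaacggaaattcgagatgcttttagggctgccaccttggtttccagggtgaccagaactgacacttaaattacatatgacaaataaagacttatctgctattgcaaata
roX1 inner: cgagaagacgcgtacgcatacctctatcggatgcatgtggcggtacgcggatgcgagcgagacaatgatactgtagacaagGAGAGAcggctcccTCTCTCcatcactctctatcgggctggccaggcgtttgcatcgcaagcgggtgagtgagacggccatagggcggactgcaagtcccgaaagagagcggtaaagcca
Clamp start: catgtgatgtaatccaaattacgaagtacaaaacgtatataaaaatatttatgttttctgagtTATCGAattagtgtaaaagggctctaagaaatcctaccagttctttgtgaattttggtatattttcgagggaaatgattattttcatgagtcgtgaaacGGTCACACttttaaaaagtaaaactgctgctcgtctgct
msl-2 start: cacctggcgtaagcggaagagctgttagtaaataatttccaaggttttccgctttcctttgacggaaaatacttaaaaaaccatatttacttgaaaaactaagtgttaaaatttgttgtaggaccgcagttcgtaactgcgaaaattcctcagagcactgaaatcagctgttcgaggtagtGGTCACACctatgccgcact

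roX2 (FBgn0019660, X, 11579065 to 11580432, plus strand, 1368 bp) had the strongest call of the set, and it sat on the start of the gene. Its summit was 3 bp upstream of the single annotated start (X, 11578933 to 11579163), with a signal of 397.7 and rank 180 in the pool. In replicate 1 the matching call ranked 174 with a signal of 186.8, and in replicate 3 it ranked 186 with 214.5. These ranks are close in the 2 libraries. Only 1.56% of all genes (286) had a strongest call of at least this signal, and 24 of the 3289 non-coding RNA genes (0.73%) did, with neighbouring genes sharing calls. Of the 2634 kept peaks within 500 bp of a start, 117 (4.44%) had their summit within 10 bp of one, as the roX2 start peak did.

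The other end of roX2 was bound as well. A kept peak from 11580125 to 11580548 had its summit in the roX2 exon, 1272 bp downstream of the start and 95 bp short of the annotated 3′ end (signal 163.7, rank 1718). It ranked 1110 in replicate 1 and 2545 in replicate 3. The nearest annotated start was that of nod, a kinesin-like gene of female meiosis, 435 bp away. The remaining roX2 calls were shoulders of these peaks. One, from 11579050 to 11579473 (signal 112, rank 3495), overlapped the start peak by 114 bp, and the other, from 11580326 to 11580749 (signal 125.3, rank 2891), overlapped the 3′ peak by 223 bp, with a summit 106 bp beyond roX2 and 234 bp from the nod start. Both replicates had calls of their own at these shoulders, of rank 3406 and 1972 in replicate 1 and of rank 3709 and 5096 in replicate 3. The 4 calls therefore form 2 separate stretches, 651 bp apart. Genes with a span under 2 kb numbered 10483, and roX2 was the 1 among them with 4 or more kept peaks. A count of separate stretches is less uncommon, as 176 of these genes (1.68%) had at least 2. Both counts were chosen after the roX2 values were seen.

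roX1 (FBgn0019661, X, 3857230 to 3862697, minus strand, 5468 bp) was bound at its start and inside its transcribed sequence. The start peak (X, 3862493 to 3862916) had its summit 8 bp upstream of the 5′ end, a signal of 229.3 and rank 785. It ranked 595 in replicate 1 (signal 117.9) and 1109 in replicate 3 (110.4). Calls of at least this signal were the strongest at 6.49% of all genes. No match to the motifs lay within 100 bp of this summit.

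The inner roX1 peak (3861124 to 3861547) had its summit in an exon 1361 bp downstream of the 5′ end, and 725 bp from the nearest of the 3 annotated starts, with a signal of 200.0 and rank 1138. Its strength differed between the libraries, with rank 419 and a signal of 135.4 in replicate 1 and rank 3171 and 65.23 in replicate 3. The rank in replicate 3 was 7.57 times that in replicate 1, and 10 of 4369 kept peaks matched in both replicates (0.229%) had a ratio this high or higher. With 1 library of each replicate no test of this difference is possible. The ratio was chosen after the roX1 values were seen, and peaks that differ in the opposite direction were not counted. The roX1 start peak, 1369 bp away, ranked higher than the inner peak in replicate 3 and lower in replicate 1. At roX2 the start and 3′ summits were 1275 bp apart, but these lie at the 2 ends of a gene of 1368 bp, whereas roX1 spans 5468 bp. The 2 distances were compared after they were seen, and distances at other genes were not counted. The other 4 roX1 calls were weak (signal 26.15 to 50.06, ranks 11376 to 29526) and lay in the 3′ part of the gene or beyond it. The convergent gene ec (echinus) holds the summits of the 2 nearest to it, with signals of 26.15 and 33.58. Each of the 4 matched a call in 1 replicate only. The strongest of these 4 lies in sequence that is not unique, with 114 of its 170 32-base words found more than once on the arms.

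**Figure D2:**
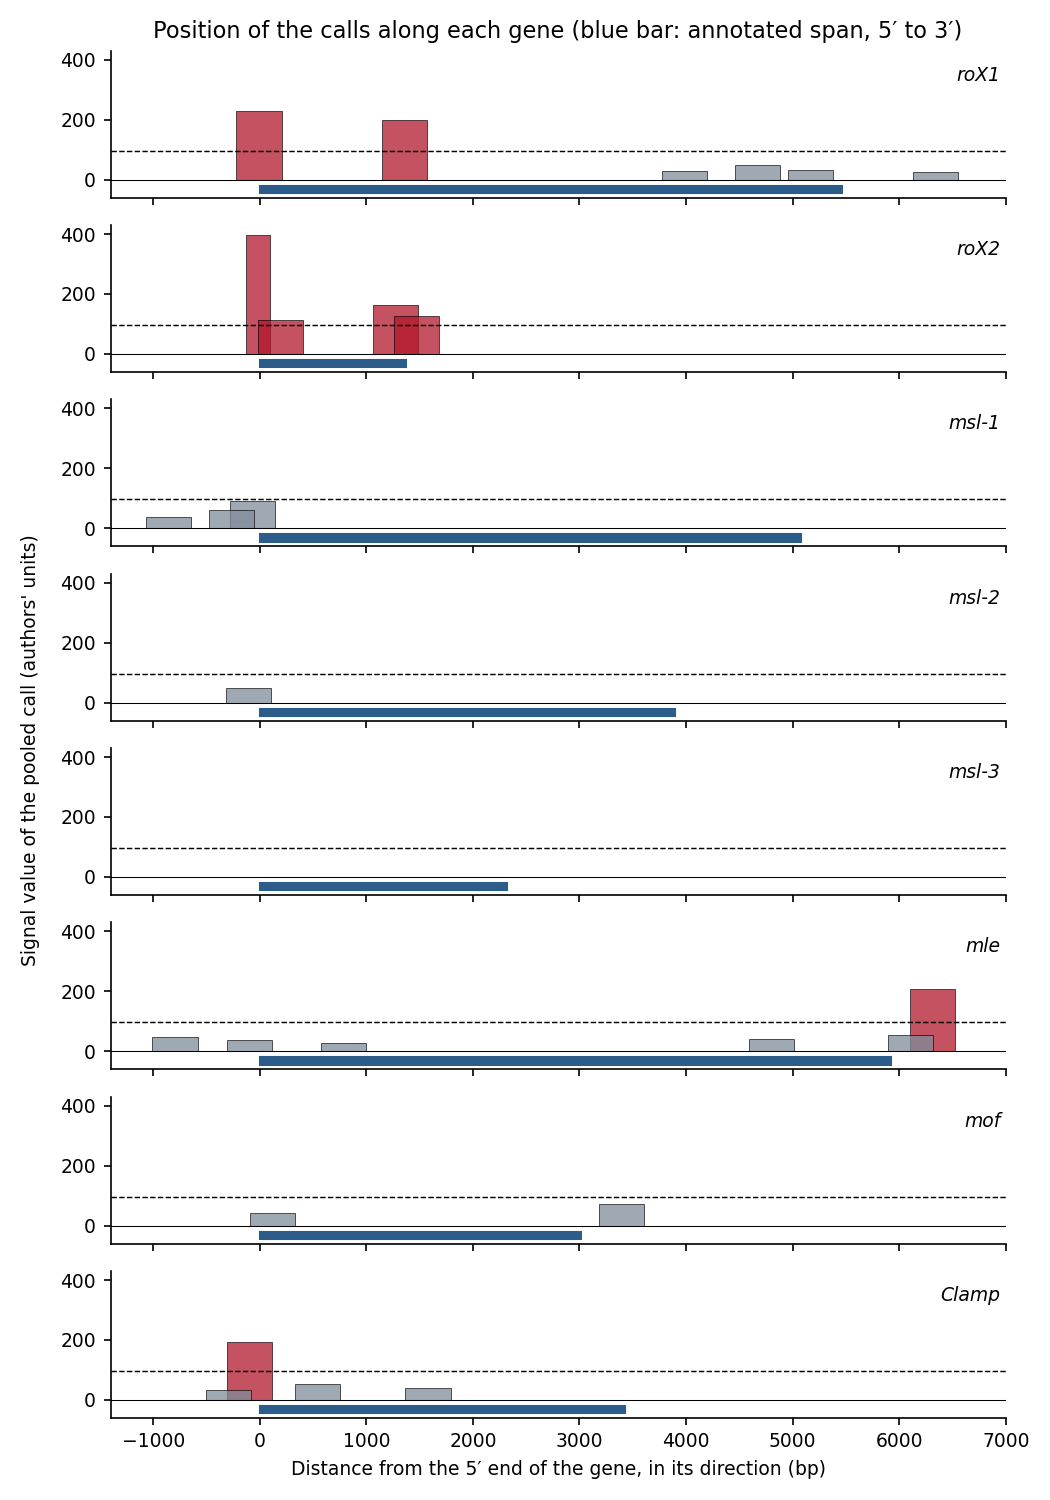
Calls drawn along each gene, with the distance from the gene's 5′ end in its own direction on the horizontal axis (bp), the signal value as height (authors' units), kept peaks in red, other calls in grey, the lowest kept signal dashed and the annotated span as a blue bar. The kept peaks of roX1, roX2 and Clamp include one at the 5′ end, whereas that of mle lies past the 3′ end.

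Among the other protein genes, msl-1, msl-2 and mof had calls below the kept threshold, and msl-3 had no call. A strongest call of at least the same signal was found at 29.2% (msl-1), 45.1% (msl-2) and 35.1% (mof) of all genes. msl-1 (FBgn0005617, 2L, 18683720 to 18688800, minus), the scaffold of the complex, came nearest to the threshold. Its start call, 65 bp upstream, had a signal of 90.37 and rank 4816, and ranked 4698 in replicate 1 and 4667 in replicate 3, so it was just outside the top 4402 in all 3 lists. A second call 265 bp upstream (signal 59.99) overlapped it, and another (38.93) lay 37 bp from the start of CG10336.

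msl-2 (FBgn0005616, 2L, 3462218 to 3466112, minus) codes for the subunit that is made only in males. It had 1 call, 106 bp upstream of the start, with a signal of 48.32 and rank 11968, and ranks of 13292 and 11462 in replicates 1 and 3. The summit lay in the 5′ untranslated region of the divergent gene ND-PDSW, a subunit of mitochondrial complex I, whose start was nearer (61 bp). msl-3 (FBgn0002775, 3L, 7123213 to 7125533), which codes for the chromodomain subunit, had no call in the pooled list or in either replicate. The nearest pooled call was 8722 bp away, a kept peak of rank 304.

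mof (FBgn0014340, X, 5873840 to 5876853, minus), the acetyltransferase gene that targets histone H4, is on X like the roX genes. Its start call, 118 bp downstream of the start in a coding exon, had a signal of 43.34 (rank 14186, and 18805 and 11820 in replicates 1 and 3). The stronger mof call (72.34, rank 6655, and 8345 and 5884 in the replicates) lay past the 3′ end, 99 bp from the start of GAA1. Neither was among the 4402 strongest of any list.

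mle (FBgn0002774, 2R, 5974857 to 5980778, minus), which codes for the RNA helicase that remodels roX RNA, had a kept peak that belongs by position to its neighbour. The peak (2R, 5974254 to 5974677, signal 208.2, rank 1012, and 1294 and 930 in replicates 1 and 3) lay 391 bp past the mle 3′ end and 81 bp from the start of BubR1, a spindle checkpoint kinase gene. At the mle starts themselves the calls were weak, with signals of 36.03 (96 bp upstream, rank 18702) and 26.34 (112 bp downstream of its other annotated start, rank 29260). The remaining mle calls had signals of 54.46 (a shoulder of the BubR1 peak), 48.47 (270 bp from the start of Src42A, a tyrosine kinase gene) and 41.78 (in a coding exon).

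Clamp (FBgn0032979, 2L, 22165720 to 22169143, minus) was the 1 protein-coding gene of the set with a kept peak at its own start. Its summit lay 96 bp upstream (2L, 22169027 to 22169450, signal 194.7, rank 1216), and it ranked 1579 in replicate 1 (signal 80.85) and 1141 in replicate 3 (109.2). Calls this strong or stronger were found at 9.79% of all genes. Weaker Clamp calls, with signals of 34.42 to 52.38, lay upstream towards lncRNA:CR44809, in the 5′ untranslated region and in a coding exon.

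Of the 8 kept peaks at these genes, 5 thus had the gene's own start as the nearest one, 2 had that of nod and 1 that of BubR1. Of all 26 calls, 10 were nearer to another gene's start. All 8 kept peaks matched calls among the 4402 strongest of both replicates, although pooled ranks are made from the same reads and a shoulder can take the main peak as its match. With the replicate call of largest overlap taken instead, 7 of the 8 did, since the call at the outermost roX2 shoulder ranked 5096 in replicate 3. Of the 26 calls, 18 matched a call in both replicates, 6 in replicate 1 only and 2 in replicate 3 only. In the whole list of 4402 kept peaks, 4369 had a counterpart in each library, so such a match is common for any kept peak. The 32-base words around the summit were unique on the chromosome arms for 23 of the 26 calls, including all the kept ones. Shares over all 30000 pooled calls are not given for replicate matches, nearest starts or unique words. The counts therefore do not set the 26 calls apart from others in the list. G and C made up 32.3% (Clamp) to 58.2% (roX1 inner) of the 201 bases at the kept summits, and the start peaks of roX1 and roX2 had 39.3% and 42.3%.

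The 1 kb limit was not close to any kept peak. Just inside it lay weak calls 873 bp from roX1 (26.15) and 854 bp from msl-1 (38.93), and just outside it weak calls 1013 bp from mle (58.96) and 1128 bp from Clamp (32.82).

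**Figure D3:**
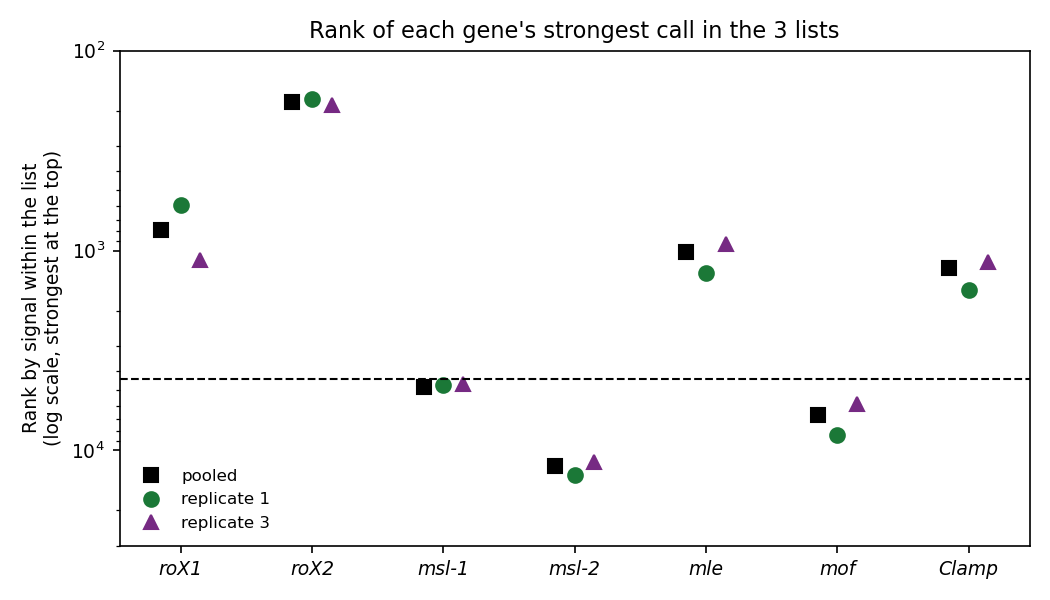
Rank by signal (log axis, strongest at the top) of each gene's strongest pooled call (square) and of its match in replicate 1 (circle) and replicate 3 (triangle), with rank 4402 dashed. The order of roX2 first and msl-2 last is the same in all 3 lists, and msl-3 is left out because it has no call.

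The rank order of the strongest call per gene was roX2, roX1, mle, Clamp, msl-1, mof and msl-2 in the pool. It was the same in replicate 1, where roX1 ranked 595 by the call matching its start peak and 419 by its inner peak. In replicate 3, mle (930) came before roX1 (1109), and Clamp (1141) followed closely. The order among roX1, mle and Clamp is therefore not stable between the 2 libraries, while roX2 stood above them and msl-1, mof and msl-2 below them in each.

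As non-coding RNA genes on X, the roX genes come from a class in which kept peaks are less common than over all genes. Kept peaks were found at 18.6% of the 483 non-coding RNA genes on X and at 10.4% of their starts. The shares over all 3289 non-coding RNA genes were 14.7% and 6.57%, and over 13968 protein-coding genes 31.4% and 22.9%. Genes on X as a whole had kept peaks at 31.5%, against 26.6% on the other arms. The rule takes in more calls for longer genes, with kept peaks at 17.6% of genes with a span under 2 kb, 33.5% of those of 2 to 5 kb, 42.3% of those of 5 to 10 kb and 53.3% of longer ones.

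Over all 26 calls of the set, kept or not, the GA repeat was about as common as among all pooled calls. With so few calls its counts say nothing particular about them. GAGAGAGA lay within 100 bp of 1 of the 26 summits, that of the roX2 3′ peak, starting 70 bp upstream of the summit. Among all 30000 pooled calls 2.43% had it. Of the 8 kept peaks of the set 1 had it, against 2.36% of all kept peaks. The shorter GAGAGA, chosen after the data were seen, was in 3 of the 26 windows and at 2 of the 8 kept peaks. At the roX1 inner peak it occurred on both strands, 19 bp and 5 bp upstream of the summit (counted to its first base), the roX2 3′ window held it inside the longer repeat, and a weak call at the mle start had it too. Its share was 10.3% of pooled calls and of kept peaks, and 13.7% of kept peaks on X farther than 500 bp from a start. Of all kept peaks on X beyond 500 bp from a start, 3.61% (14 of 388) had the longer repeat, and of those off X 2.61% (36 of 1380). The roX2 3′ peak is not in this class, as the nod start is 435 bp away. Of kept peaks within 500 bp of a start, 2.05% had the longer repeat and 8.28% the shorter one. A match of letters does not show that CLAMP or the MSL complex was bound there.

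The promoter elements were read in the same way. GGTCACAC lay within 100 bp of 3 of the 26 summits, at the starts of roX2, Clamp and msl-2, on the gene's strand each time. It began 11 bp downstream of the roX2 start, 34 bp upstream of the Clamp start and 25 bp upstream of the msl-2 start. Its share was 2.07% of pooled calls and 6.91% of kept peaks within 500 bp of a start. The msl-2 call is not a kept peak, and a share over all pooled calls near a start was not computed. TCGATA was in 4 of the 26 windows (12.4% of pooled calls), at the Clamp start, at the GAA1 start next to mof, at the BubR1 start next to mle and upstream of mle. The full DRE, TATCGATA, which contains it, was in the BubR1 window alone (2.90% of pooled calls). The roX1 start window had none of these motifs.

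Beyond the complex, 3 lists of related genes were read by the same rule, with 27.3% of all genes as the background for kept peaks and 91.03 as the median signal of the strongest call over the 10561 genes with any call. For the 8 genes of the complex this median, over the 7 with a call, was 194.7. It counts the BubR1 peak for mle, and with the strongest call within 500 bp of a gene's own start it was 90.37, against 82.87 over the 8134 genes with such a call. The NSL complex, which also contains MOF and acts at promoters of both sexes, had kept peaks at 2 of 6 genes (nsl1, signal 125.6, and Rcd5, 159.9), weaker start calls at wds (87.12) and MBD-R2 (67.63) and no call at Rcd1 and dgt1. The median over its 4 genes with a call was 106.4. The Rcd5 peak lay in the 5′ untranslated region of CG11593, 30 bp from that gene's start and 77 bp upstream of the Rcd5 start, and the wds call was 139 bp from the start of CG13760 and 142 bp from that of wds. These neighbours, and CG1998 at Set2, were picked out after their values were seen.

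Genes that control msl-2 and sex had kept peaks at 6 of 8. The strongest was at the start of da (221.5), which codes for a helix-loop-helix activator of Sxl. Unr, a corepressor of msl-2 translation, had 182.1 at its start, and fl(2)d, a splicing cofactor of Sxl, had 168. Sxl itself had 2 kept peaks among 20 calls over its 23504 bp, with signals of 140.8 (in an intron, 477 bp from a start) and 131.5 (76 bp upstream of a start). The RNA-binding regulators Hrb27C (157.4, 959 bp from a start) and how (139.6) had them too. snf, a splicing factor gene, had a start call of 82.52, and vir had no call. The median over the 7 genes with a call was 157.4, and 140.8 for calls at their own starts.

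Genes for chromatin proteins that act with the MSL complex also had kept peaks at 6 of 8. Trl, which codes for the GA-binding GAGA factor, had the highest of these (579.1, rank 54, and ranks 67 and 50 in replicates 1 and 3), 1536 bp from its nearest start. JIL-1, a histone H3 kinase gene of 14442 bp, had 5 kept peaks, the strongest (365.6, rank 224) 7101 bp from its nearest start. Of all genes of 10 kb or more, 7.25% had 4 or more kept peaks. The JIL-1 peaks with signals of 137.2 and 111.7 matched the same call in replicate 3. The weaker of them ranked 13450 in replicate 1. Start peaks were found at Iswi (265.8), a chromatin remodeller gene, at Set2 (245.9, with the CG1998 start nearer, at 31 bp against 137 bp), a histone H3 methyltransferase gene, and at Top2 (224.9), a topoisomerase gene. Nup153, a nuclear pore gene, had a kept peak of 97.39, next to the threshold and 8721 bp from its nearest start. Mgtor (Megator, a nuclear pore gene) had no call in any list, and Su(var)3-7, a heterochromatin gene, had none in the pooled list although replicates 1 and 3 listed 1 and 3 calls there. The median over the 6 genes with a call was 255.8, and 191.9 for calls at their own starts. The median span of these last lists is 8112 and 8184.5 bp, longer than the 3659.5 bp of the complex, and kept peaks are more common at longer genes.

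**Figure D4:**
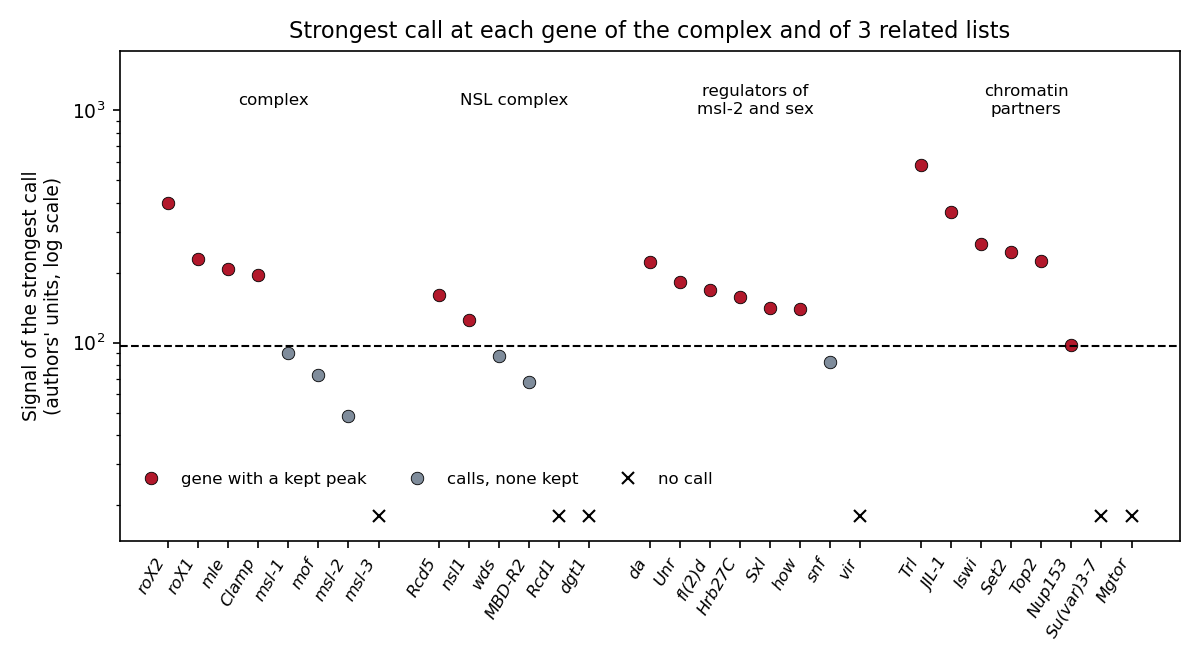
Signal of the strongest pooled call (log axis, authors' units) at each gene of the complex and of the 3 related lists, in red where the gene had a kept peak, grey where it had weaker calls, and as a cross at the bottom where it had none, with the lowest kept signal dashed. Trl at 579.1 is the one gene above roX2 at 397.7.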

How the data were processed

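ChIP-seq peak lists of 2 replicates of 1 group were read. According to the file lists deposited with them, regions were called by the authors on each replicate and on pooled alignments with a shared control file, and passed them to IDR. Which aligner and which peak caller were run is not given in these sources. The signal value and the −log10 q-value of each call are the authors' deposited values, and ranks were taken from the signal, list by list. The summit is the start of a call plus the authors' deposited offset. Lists on dm3 were not used.

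Genes and starts came from Ensembl release 115 (dm6), transposable elements apart, and sequence from the RefSeq copy of Release 6. Calls were placed by summit within 1 kb of a gene, or 500 bp of a start. A pooled call was matched to the strongest replicate call sharing 50% or more of the shorter one's length. Motifs were read on both strands within 100 bp of summits. Named genes are the 8 members, the 22 genes of 3 lists, and the genes nearest to or holding a member's summit. Mtor was matched as Mgtor.

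The members and lists were chosen with earlier results of these data known, and no test was run. The counting of calls inside a gene was checked on calls planted in genes longer than 5 kb, each gene alone. The 1 kb and 500 bp rules were not part of that check. The work used Python 3.11.15, pandas 2.3.3, numpy 2.4.6, scipy 1.17.1 and matplotlib 3.10.9.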

Additional observations from a re-analysis of the deposited data

How the results depend on the processing

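Of 64 alternative counts, 53 stayed within 1.5 times of the reported ones. With summits inside the gene only, 11 calls, 2 genes with a kept peak (roX1 and roX2) and 3 kept peaks were left, and the background share of genes with a kept peak went from 27.3% to 8.87%. Motif counts other than that of GAGAGAGA rose with longer windows, of 200 bp on either side or the whole call. TATCGATA was in 2 of 26 (pooled calls 4.51% and 4.62%), TCGATA in 9 of 26 (20.5% and 21.2%) and GGTCACAC in 4 of 26 (3.31% and 3.34%). GAGAGA was in 5 of 26 (19.2% and 19.8%), now also at the Clamp start peak and a weak msl-1 start call. GAGAGAGA stayed at 1 of 26 (4.70% and 4.81%). The NSL complex had 4 genes with a kept peak within 2 kb (33.0% of all genes) and 1 with only the 2201 strongest kept peaks (16.3% of all genes).

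With the list of either replicate alone, the genes had 26 to 28 calls, and roX1, roX2, mle and Clamp were the 4 genes with a top call, with 7 to 8 such calls. Over all genes, the shares in replicates 1 and 3 were 60.5% and 58.9% with a call, and 27.3% and 27.6% with a top call. The pooled calls are made from these same reads, so the lists are not independent. One call per overlapping run, an alternative added after the data were seen, left 21 calls and 6 kept peaks. Moving the limit from 1 to 2 kb added 6 calls (1 at msl-1, 3 at mle, 2 at Clamp), none kept. No paired analysis was possible because the series has 1 group. Depth is unknown, so weak calls and a lack of calls, as at msl-3, cannot be read as absence of binding. Calls that were not kept cannot be read as binding either, because the pooled list includes background.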
